A study of Arabidopsis thaliana with 12 samples.

Results

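SWEET13 and QQS, a sugar transporter gene and a gene tied to leaf starch, were followed on every array of the study. They are 2 of the 13286 Arabidopsis genes that have a probe set of their own in the annotation used here, and each is read by 1 probe set. SWEET13 is locus AT5G50800 on chromosome 5, and QQS is locus AT3G30720 on chromosome 3. They were chosen because earlier results of these data showed each to change in only 1 of the transgenic lines, so their levels in those comparisons are given as a description, with no test.

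The plants were Arabidopsis thaliana seedlings of the Col-0 ecotype, 3 weeks old and grown on soil in 10 h of light and 14 h of dark. RNA of their green tissue was measured on 12 arrays, with 3 biological replicates in each of 4 groups. A line with an RNA interference (RNAi) transgene that lowers CHLD, a subunit of the magnesium chelatase of chlorophyll synthesis, was sprayed with 20 µg/ml dexamethasone, the inducer of its transgene, and Col-0 control plants received the same. A line with a transgene that raises CHLM, the next enzyme of that pathway, received 20 µM β-estradiol as its inducer, as did a second Col-0 control group. Each control thus carried no transgene but shared the inducer of the line it was set against. The promoters of the transgenes, the number of independent lines and the time between spraying and harvest are not given in the sources used here.

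SWEET proteins let sugar pass through membranes down its concentration gradient. In Arabidopsis leaves SWEET11 and SWEET12 release sucrose from phloem parenchyma cells of the veins. Proton symporters of the SUC family then load it for export. SWEET13 belongs to the same sucrose-transporting branch of the SWEET family as SWEET11 and SWEET12. QQS (Qua-Quine Starch) is an orphan gene, one with no recognised relative outside Arabidopsis thaliana. It encodes a very small protein, its knockdown raises leaf starch, the protein binds the transcription factor subunit NF-YC4, and its expression is known to vary with DNA methylation of its locus among natural accessions.

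Signals are given on the log2 scale, on which the median of an array lay from 6.26 to 6.32. The targeted gene CHLM read 14.23 ± 0.26 (SD, n = 3) in its overexpression line against 11.70 ± 0.02 in Col-0 under estradiol, and CHLD is not analysed here. Col-0 estradiol replicate 1 stood apart, with a correlation across probe sets of 0.99 to each of the other replicates of its group, where those had 0.997 between them, and results that rest on it are given with and without it. The green tissue markers LHCB4.2, a light-harvesting protein gene, and SBPASE, a Calvin cycle enzyme gene, read at least 11.67 in each group mean, and both stayed within 0.22 of their controls in each line. For the other 3 of the 5 green tissue markers, and for the listed markers of phloem companion cells, xylem and flowers, the annotation used here names no probe set of their own, so they are not analysed. A gene is called measured below where it has such a probe set.

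SWEET13 was high in the CHLD RNAi line alone among the 4 groups. It read 9.13, 9.19 and 8.88 in the 3 replicates of that line and 6.54, 5.88 and 5.94 in Col-0 under dexamethasone. It read 6.48, 6.36 and 6.75 in Col-0 under estradiol, and 6.44, 6.39 and 6.67 in the CHLM overexpression line. The 3 arrays of the RNAi line thus all lay above the other 9 arrays, the closest of which was at 6.75.

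In group means SWEET13 stood at 9.07 ± 0.16 (SD, n = 3) in the RNAi line and 6.12 ± 0.36 in its control, a 7.71-fold difference (log2 difference 2.95, SE 0.162). The rank of this rise among the 22746 probe sets was 9. In the CHLM line the mean was 6.50 ± 0.15 against 6.53 ± 0.20 (log2 difference -0.03, SE 0.162), and the groups overlapped fully. The lines therefore differed in their SWEET13 effect by 2.98 on the log2 scale (CHLM effect minus CHLD effect -2.98, SE 0.229). Of all probe sets, 31.7% had groups that did not overlap in the RNAi comparison and 26.3% in the CHLM comparison. In such bulk tissue, a change in the number of cells of a type and a change in RNA per cell cannot be told apart.

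QQS had the opposite layout, low in the CHLM overexpression line alone. It read 5.04, 5.03 and 5.33 in the 3 replicates of that line, and 9.14, 9.03 and 9.14 in Col-0 under estradiol. It read 9.41, 9.32 and 9.02 in Col-0 under dexamethasone, and 9.30, 8.61 and 8.91 in the CHLD RNAi line. All 3 arrays of the CHLM line lay below the other 9, the lowest of which was at 8.61.

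The mean of QQS was 5.13 ± 0.17 (SD, n = 3) in the CHLM line and 9.10 ± 0.06 in its control, a 15.7-fold difference (log2 difference -3.97, SE 0.153). The rank of this fall among all probe sets was 2. In the RNAi line the mean was 8.94 ± 0.35 against 9.25 ± 0.20 (log2 difference -0.31, SE 0.153). There replicate 1 of the line, at 9.30, lay inside the range of the control, and replicates 2 and 3 lay below it. The effects of the lines differed by -3.66 (CHLM effect minus CHLD effect, SE 0.217).

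**Figure D1:**
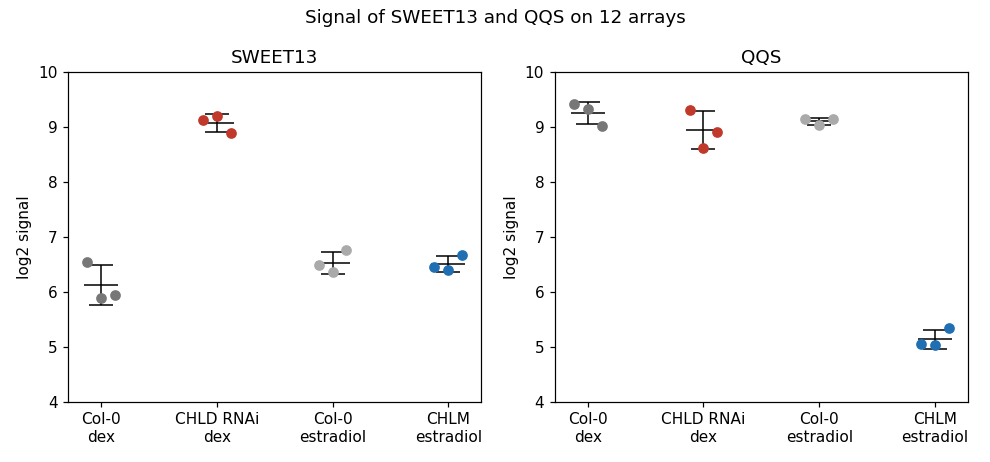
Log2 signal (vertical axis) of SWEET13 (left) and QQS (right) on each of the 12 arrays, by group; points are arrays, and bars are the mean and SD of 3 arrays. SWEET13 is at 8.88 to 9.19 in the CHLD RNAi line and at most 6.75 elsewhere, and QQS is at 5.03 to 5.33 in the CHLM line and at least 8.61 elsewhere.

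The Col-0 groups, which differ in the inducer, give a comparison that the choice of these genes did not use, although it rests on the same control arrays. Neither gene passed the threshold there, an adjusted p under 0.05 over all 22746 probe sets, which 0.0484% of probe sets met, and both had overlapping groups, where 14.9% of probe sets did not overlap. Without Col-0 estradiol replicate 1 the share past the threshold was 3.2% (728 probe sets in place of 11), and neither gene passed there either. SWEET13 was lower under dexamethasone than under estradiol by 0.41 (log2 difference -0.41, SE 0.162, 95% interval -0.76 to -0.06, unadjusted p = 0.0238, limma adjusted p = 0.377). Dexamethasone replicate 1 lay inside the range of the estradiol group, and replicates 2 and 3 lay below it. QQS differed by 0.15 (SE 0.153, 95% interval -0.18 to 0.48, limma adjusted p = 0.809).

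Over the 12 arrays the signals of SWEET13 and QQS were correlated at r = 0.217, and the deviations of the arrays from their group means at r = 0.357. This describes 12 points that share 4 groups, and the first value follows from the choice of genes that change in different lines.

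The SWEET family was almost completely measured, with 15 of its 16 other members read and SWEET12 not analysed here. In the CHLD RNAi line 1 of these 15 rose and 0 fell, where 12.4% of all probe sets were called (6.07% higher, 6.34% lower). In the CHLM line 2 rose and 1 fell, where 9.75% were called (5.44% higher, 4.30% lower). The medians of the 15 differences were 0.05 in the RNAi line and 0.06 in the CHLM line, beside -0.007 and 0.02 over all probe sets, and the RNAi differences ran from -0.84 to 0.60. The 2.95 of SWEET13 lay outside that range.

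SWEET17, a fructose carrier of the vacuolar membrane, was the member that rose in the RNAi line. It read 9.87, 10.14 and 9.90 in the line against 9.30, 9.39 and 9.42 in Col-0, with no overlap (log2 difference 0.60, SE 0.0941, limma adjusted p = 0.00102). It also rose in the CHLM line, from 9.42, 9.60 and 9.53 to 9.79, 9.94 and 9.86 (0.35, SE 0.0941, limma adjusted p = 0.0337). That second call was lost when any 1 of the CHLM arrays, or replicate 1 or 3 of their control, was left out (adjusted p of 0.0553 to 0.107).

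SWEET2, a sugar carrier of the vacuolar membrane best known from roots, rose in the CHLM line. It read 6.79, 6.87 and 7.08 there against 6.42, 6.19 and 6.16 in Col-0 (log2 difference 0.66, SE 0.119, limma adjusted p = 0.00549), and its RNAi difference was 0.34 (adjusted p = 0.0828). SWEET11, the sucrose exporter of phloem parenchyma, was lower in the CHLM line, at 10.80, 10.96 and 10.82 against 11.23, 11.19 and 11.21 (log2 difference -0.35, SE 0.1, limma adjusted p = 0.0418). The groups did not overlap, but the call was lost when any 1 of the 3 control arrays, CHLM replicate 1 or 3, or replicate 3 of either dexamethasone group was left out (adjusted p of 0.0516 to 0.124). In the RNAi line, where SWEET13 was high, SWEET11 differed by 0.13 (SE 0.1, adjusted p = 0.481), with overlapping groups.

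Besides SWEET11 and SWEET15, the measured members of that branch were SWEET9, SWEET10 and SWEET14, which gave low signals. SWEET14, which carries sucrose and, like SWEET13, gibberellin, read between 3.51 and 3.81 on all 12 arrays (log2 difference -0.01 in the RNAi line and -0.05 in the CHLM line). SWEET10, the adjacent gene on the chromosome, differed by 0.13 and 0.20, and SWEET9, the sucrose exporter of nectaries, by -0.04 and -0.10. These 3 probe sets read below 4.3 on every array, where the array medians were above 6.2, so low signal limits what they could show.

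SWEET4 and SWEET15 turned on Col-0 estradiol replicate 1. SWEET4, a hexose carrier, read 8.05 on that array and 5.86 and 5.90 on replicates 2 and 3. In the CHLM line it read 6.09, 6.12 and 6.46, below that array and above the other replicates. Its CHLM difference of -0.38 with all arrays (SE 0.411, limma adjusted p = 0.627) thus rests on replicate 1. In the RNAi line it read 4.93, 5.24 and 5.54 against 5.94, 6.23 and 6.07 in Col-0, a log2 difference of -0.84 that did not pass with all arrays (SE 0.411, limma adjusted p = 0.212) and passed without that 1 array of the shared spread (SE 0.141, adjusted p = 0.00105). SWEET15, named SAG29 in the reference and a senescence-associated sucrose carrier, read 6.38 on that array and 4.70 and 4.80 on replicates 2 and 3. Its difference in the CHLM line was 0.35 (SE 0.311, limma adjusted p = 0.539) with all arrays and 0.89 (SE 0.129, adjusted p = 0.00108) without replicate 1. SWEET13 and QQS did not share this, reading 6.48 and 9.14 on that array, within the range of replicates 2 and 3.

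**Figure D2:**
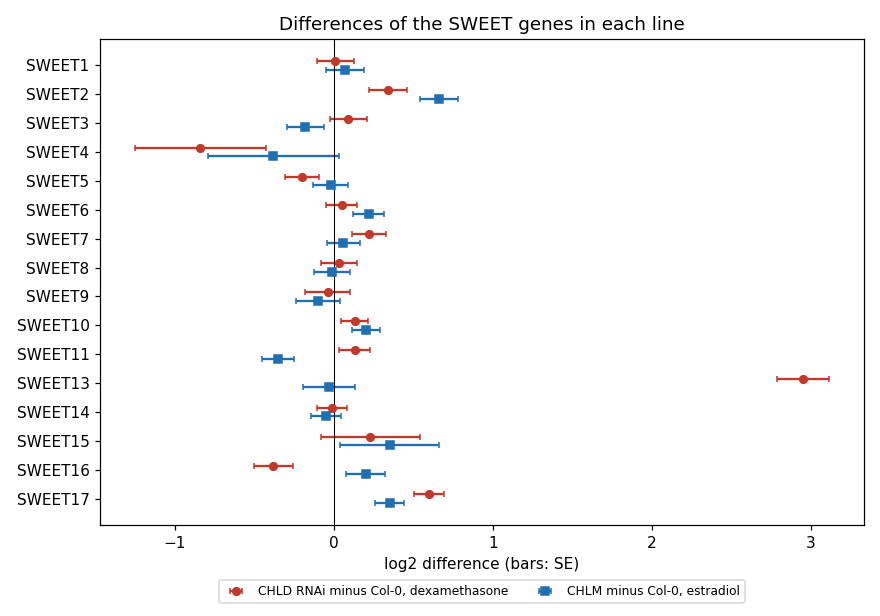
Log2 difference of each measured SWEET gene (rows) from Col-0 with the same inducer, in the CHLD RNAi line (circles) and the CHLM overexpression line (squares); bars are SE. With all 12 arrays, SWEET13 stands at 2.95 in the RNAi line, and the other 15 genes lie between -0.84 and 0.66 in both lines. Without Col-0 estradiol replicate 1, SWEET15 is at 0.89 in the CHLM line.

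Beyond the SWEET family, sugar transport and starch turnover were read in part. Of 130 listed genes other than SWEET13 and QQS, 34 had a probe set with a gene name of its own, the 15 SWEET genes included, and none of the SUC symporters, sugar sensors, DNA methylation genes or NF-YC4 was among them. In the RNAi line 3 of the 34 rose and 4 fell (20.6%, beside 12.4% of all probe sets), and in the CHLM line 3 rose and 2 fell (14.7%, beside 9.75%). The median differences were 0.01 and 0.07. Differences of 26 of the 34 in the RNAi line and 32 of the 34 in the CHLM line were under 0.5 in size.

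Among the genes listed as vacuolar sugar carriers, 5 of 8 were measured. Of these 3 fell and 0 rose in the RNAi line, with a median of -0.47, where 6.34% of all probe sets were called lower. SWEET2 and SWEET17, described above as carriers of the vacuolar membrane, were counted with the SWEET family instead. They stood above Col-0 in the RNAi line, at 0.34 (limma adjusted p = 0.0828) and 0.60 (limma adjusted p = 0.00102), so the count depends on how the lists were drawn. TMT1, a proton-coupled importer of sugar into the vacuole, read 7.33, 7.36 and 7.52 in the line against 8.06, 8.10 and 8.14 in Col-0 (log2 difference -0.70, SE 0.0942, limma adjusted p = 3.16e-04). TMT1 fell in the CHLM line as well, to 7.57, 7.50 and 7.48 from 7.84, 7.99 and 8.16 (-0.48, SE 0.0942, limma adjusted p = 0.00757), the only member of the 5 past the threshold in that line. The groups did not overlap in either line.

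TMT2, its close paralogue, fell by 0.47 in the RNAi line (SE 0.113, limma adjusted p = 0.0142) and stood at -0.26 in the CHLM line (adjusted p = 0.166). Its call ended without CHLD RNAi replicate 3 (adjusted p = 0.0595) or Col-0 dexamethasone replicate 1 (0.0577). SFP2, a carrier of the ERD6-like family, read 7.46, 7.43 and 7.25 in the RNAi line against 8.30, 7.84 and 8.03 in Col-0 (log2 difference -0.68, SE 0.165, limma adjusted p = 0.016), and 0.28 higher than Col-0 in the CHLM line (adjusted p = 0.321). Col-0 under estradiol read 7.91, 7.45 and 7.38, and its replicates 2 and 3 lay inside the range of the RNAi line. Col-0 under dexamethasone was 0.48 above it (limma adjusted p = 0.312), or 0.64 without estradiol replicate 1 (adjusted p = 0.038). The SFP2 call ended without CHLD RNAi replicate 3 (adjusted p = 0.0569) or Col-0 dexamethasone replicate 1 (0.0776).

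Starch synthesis was represented by 3 of 16 listed genes. APL3 and APL4 encode large subunits of ADP-glucose pyrophosphorylase, the enzyme that makes the glucose donor for starch, and they moved in opposite directions in the RNAi line. APL3 rose, reading 6.39, 7.22 and 6.63 against 5.95, 5.71 and 5.99 (log2 difference 0.86, SE 0.189, limma adjusted p = 0.00898). APL4 fell, reading 4.65, 5.10 and 4.50 against 5.59, 5.55 and 5.47 (-0.79, SE 0.147, limma adjusted p = 0.00342). Neither pair of groups overlapped. In the CHLM line, where QQS was low, they stood at 0.43 (adjusted p = 0.172) and -0.33 (adjusted p = 0.181).

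SBE2.2, a starch branching enzyme, rose in the CHLM line, from 9.22, 9.01 and 8.93 to 9.46, 9.34 and 9.48 (log2 difference 0.37, SE 0.0938, limma adjusted p = 0.0241). Leaving out replicate 1 or 3 of the line, or replicate 2 or 3 of its control, ended this call (adjusted p of 0.0661 to 0.0845). In the RNAi line SBE2.2 was at -0.04. Of the starch breakdown genes 3 of 23 were measured and none passed in either line, beside 12.4% (RNAi) and 9.75% (CHLM) of all probe sets. At an unadjusted p under 0.05 there were 0 in the CHLM line and 1 in the RNAi line. PWD, the phosphoglucan water dikinase that prepares the granule for breakdown, came closest in the RNAi line (log2 difference -0.28, adjusted p = 0.0629) and stood at -0.14 in the CHLM line. Its mean was 9.54 in the RNAi line, 9.82 in Col-0 under dexamethasone and 9.52 in Col-0 under estradiol. The Col-0 groups thus differed by 0.31 without overlap (limma adjusted p = 0.255), and the RNAi line lay near Col-0 under estradiol.

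Of the plastid envelope carriers 1 of 6 was measured. XPT (AT5G17630), the exchanger of pentose phosphates, rose in the RNAi line, to 8.97, 9.11 and 8.80 from 8.51, 7.97 and 8.25 (log2 difference 0.72, SE 0.122, limma adjusted p = 0.00188). Its difference in the CHLM line was 0.22 (adjusted p = 0.282). Of 14 listed STP hexose importers 4 were measured, and none passed in either line (beside 12.4% and 9.75% of all probe sets), where STP3 (AT5G61520) had the smallest p in both lines (-0.30 in the RNAi line, adjusted p = 0.326, and -0.56 in the CHLM line, adjusted p = 0.0664). At an unadjusted p under 0.05 there were 0 and 1. STP3 also turned on Col-0 estradiol replicate 1, and passed in the CHLM line without it (-0.77, SE 0.16, limma adjusted p = 0.00996). Among 3 measured genes of sucrose synthesis and cleavage none passed in either line, beside the same 12.4% and 9.75% of all probe sets. At an unadjusted p under 0.05 there were 1 in the RNAi line and 0 in the CHLM line. The sucrose phosphate synthase gene SPSC stood at 0.51 in the RNAi line (adjusted p = 0.127) and 0.35 in the CHLM line (adjusted p = 0.324).

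The difference between the line effects was tested for the 34 genes as well, and 0 passed, where 1.13% of all probe sets did. At an unadjusted p under 0.05 there were 6. Without Col-0 estradiol replicate 1, when 2.16% of all probe sets passed, there were 2 past the threshold, SWEET4 (CHLM effect minus CHLD effect 1.19, SE 0.212, limma adjusted p = 0.00616) and SFP2 (1.12, SE 0.21, adjusted p = 0.00841). Between the Col-0 groups 0 of the 34 passed, beside 0.0484% of all probe sets, with 3 at an unadjusted p under 0.05. Without the same array, when 3.2% of all probe sets passed, SFP2 passed there (Col-0 dexamethasone minus estradiol 0.64, SE 0.156, limma adjusted p = 0.038).

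**Figure D3:**
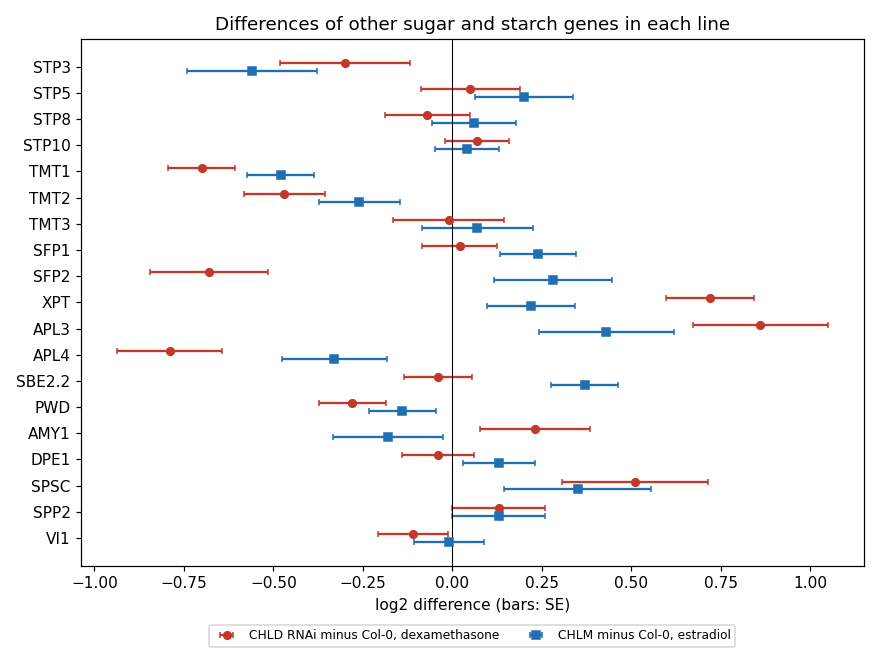
Log2 difference from Col-0 with the same inducer for the 19 measured sugar and starch genes outside the SWEET family, in the CHLD RNAi line (circles) and the CHLM overexpression line (squares); bars are SE. TMT1, TMT2 and SFP2, listed as vacuolar carriers, lie at -0.47 to -0.70 in the RNAi line, where APL3 lies at 0.86 and APL4 at -0.79.

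Markers of other tissue parts moved beside these results. FMA, a regulator of guard cell formation and 1 of 5 listed epidermal markers measured, fell by 0.38 in the RNAi line (SE 0.109, limma adjusted p = 0.0361), and leaving out replicate 2 or 3 of either dexamethasone group ended that call (adjusted p of 0.0896 to 0.141). Its array values ran from 5.79 to 6.12 there and from 6.18 to 6.40 in Col-0. PYK10, a beta-glucosidase of roots and 1 of 3 listed root markers measured, fell by 0.44 in the CHLM line (SE 0.117, limma adjusted p = 0.0301), from values of 11.95 to 11.99 to values of 11.42 to 11.70. Its group means of 11.53 to 11.97 were like those of the green tissue marker SBPASE, at 11.67 to 11.95. Whether PYK10 marks root in these samples of green tissue was not tested. Both stood lower than Col-0 in the other line too, FMA at -0.22 in the CHLM line (adjusted p = 0.22) and PYK10 at -0.32 in the RNAi line (adjusted p = 0.089). Leaving out any 1 of its control arrays, or replicate 2 or 3 of the line, ended the PYK10 call (adjusted p of 0.0613 to 0.0947). Their part in the levels of SWEET13 and QQS was not tested.

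Genes with a pattern like that of each member were looked for among 1258 probe sets with 1 gene and an SD of at least 0.3 over the 12 arrays. The measure was Pearson's r over the 12 arrays, which mainly reflects the group with the extreme level. The arrays share their groups, and the genes were picked for their likeness, so these are descriptions.

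The 5 genes most like SWEET13 had r between 0.979 and 0.984. They were AT1G80280, PUB25 (a U-box ubiquitin ligase), FMO (a flavin-dependent monooxygenase, AT1G12200), ATMPK13 (a mitogen-activated protein kinase) and AT5G25490, in that order. AT1G80280 read 10.03, 9.93 and 9.81 in the RNAi line against 6.66, 6.56 and 6.37 in its control. FMO read 9.05, 9.32 and 9.02 against 7.08, 6.86 and 7.02, and ATMPK13 read 7.60, 8.26 and 7.77 against 5.17, 5.11 and 4.85. All 5 were high in the RNAi line, with differences of 1.40 to 3.39, and lay within 0.37 of Col-0 in the CHLM line. The deviations from group means, which leave the group levels out, were correlated with those of SWEET13 at 0.712 for PUB25, 0.534 for FMO, 0.533 for ATMPK13, 0.373 for AT1G80280 and 0.00615 for AT5G25490. The most opposite genes were AT1G69580, AT3G62820 and AT3G21950, with r of -0.929, -0.911 and -0.902 and differences of -0.64 to -0.85 in the RNAi line.

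The correlations with QQS were lower. The 5 genes most like it were AT1G62500 (r = 0.951), AT1G64360 (0.942), AT4G38550 (0.923), FDH (0.917), which encodes formate dehydrogenase, and AT3G58000 (0.913). AT4G38550 is read by a probe set of the kind that may match several transcripts. Their falls in the CHLM line were between 0.54 and 1.24 in size, beside 3.97 for QQS. AT1G64360 read 7.29, 6.63 and 7.31 in the line against 8.44, 8.22 and 8.30 in Col-0, and FDH read 9.58, 9.69 and 9.97 against 11.09, 10.59 and 10.53. None of these falls came near that of QQS in size.

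The genes most opposite to QQS were CHLM itself (r = -0.980), the defensin-like gene LCR68 (-0.961) and AT2G35750 (-0.956). They stood 2.52, 0.83 and 1.25 higher in the CHLM line than in Col-0. Within groups the deviations of QQS and CHLM were correlated at 0.298, so the -0.980 reflects the difference between groups.

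**Figure D4:**
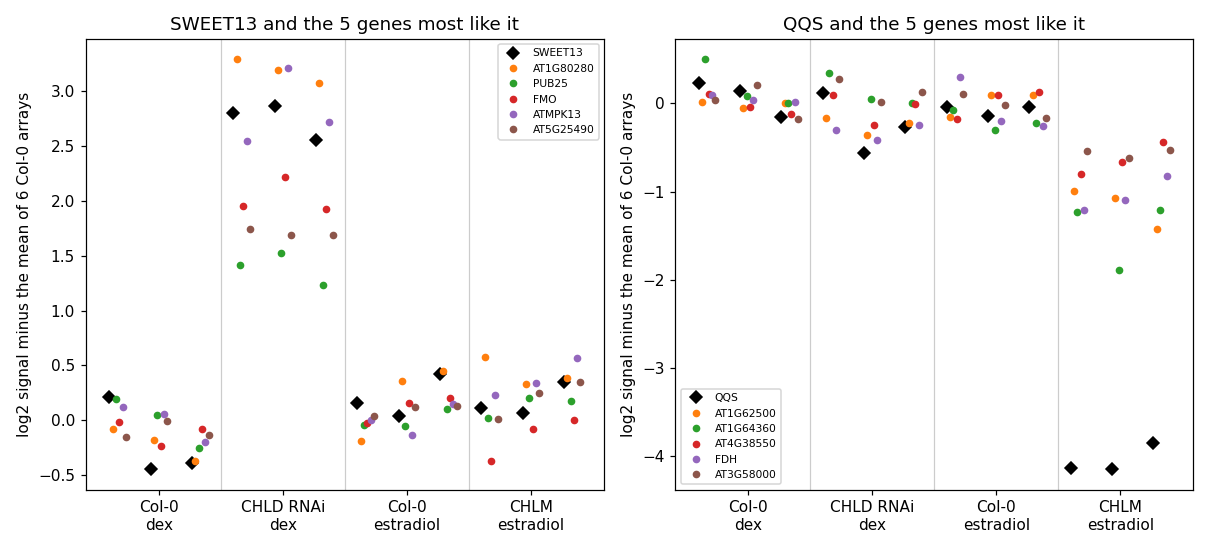
Log2 signal minus the mean of the 6 Col-0 arrays (vertical axis) on each array, grouped by line and inducer, for SWEET13 (left, black diamonds) and QQS (right, black diamonds) with the 5 genes most like each (coloured points). Against Col-0 with the same inducer, the genes like SWEET13 are 1.40 to 3.39 higher in the CHLD RNAi line, and those like QQS are lowered by 0.54 to 1.24 in the CHLM line, where QQS itself is lowered by 3.97.

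Measured genes around each member on its chromosome were read as well. Neighbours were the 5 measured genes on each side in chromosome order, taken from RefSeq's gene entries for TAIR10.1, which also include genes for non-coding RNA. Unmeasured genes lie between them, and the farthest were 39 gene entries from SWEET13 and 37 from QQS. Of the 10 neighbours of SWEET13 0 rose in the RNAi line and 1 fell, shares near those of all probe sets (6.07% higher and 6.34% lower). SWEET10, the next gene on 1 side, read 3.83, 3.80 and 3.67 in the line against 3.69, 3.65 and 3.58 in Col-0 (log2 difference 0.13, limma adjusted p = 0.407). AT5G50780, which comes after SWEET10, fell by 0.48 in the RNAi line (SE 0.111, limma adjusted p = 0.0123) and by 0.54 in the CHLM line (SE 0.111, adjusted p = 0.00943). Its RNAi call ended without CHLD RNAi replicate 2 (adjusted p = 0.052) or Col-0 dexamethasone replicate 2 (0.0502). The other 8 neighbours lay between -0.19 and 0.10 in the RNAi line.

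The surroundings of QQS gave low signals. Its nearest measured neighbours were 4 gene entries away on 1 side (AT3G30730) and 12 on the other (AT3G30710). The group means of all 10 neighbours lay between 2.66 and 4.82, below the array medians, so they limit what could be seen. Of these, AT3G30660 and AT3G30670 are read by probe sets of the kind that may match several transcripts. In the CHLM line 0 rose and 1 fell, beside 5.44% of all probe sets higher and 4.30% lower. It was AT3G30660, which read 3.20, 3.05 and 3.14 against 3.48, 3.40 and 3.52 (log2 difference -0.34, SE 0.0907, limma adjusted p = 0.0328). Its mean was 3.13 in the CHLM line, 3.13 in Col-0 under dexamethasone and 3.21 in the RNAi line, so Col-0 under estradiol, at 3.47, was the group that stood apart. Leaving out any 1 array of the line, or replicate 1 or 3 of its control, ended that call (adjusted p of 0.0542 to 0.0983). The 9 others lay between -0.17 and 0.29. In the RNAi line none of the 10 passed, beside 12.4% of all probe sets, and 0 had an unadjusted p under 0.05. The difference between the line effects passed for 0 of the 20 neighbours of both genes, beside 1.13% of all probe sets, with 1 at an unadjusted p under 0.05.

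**Figure D5:**
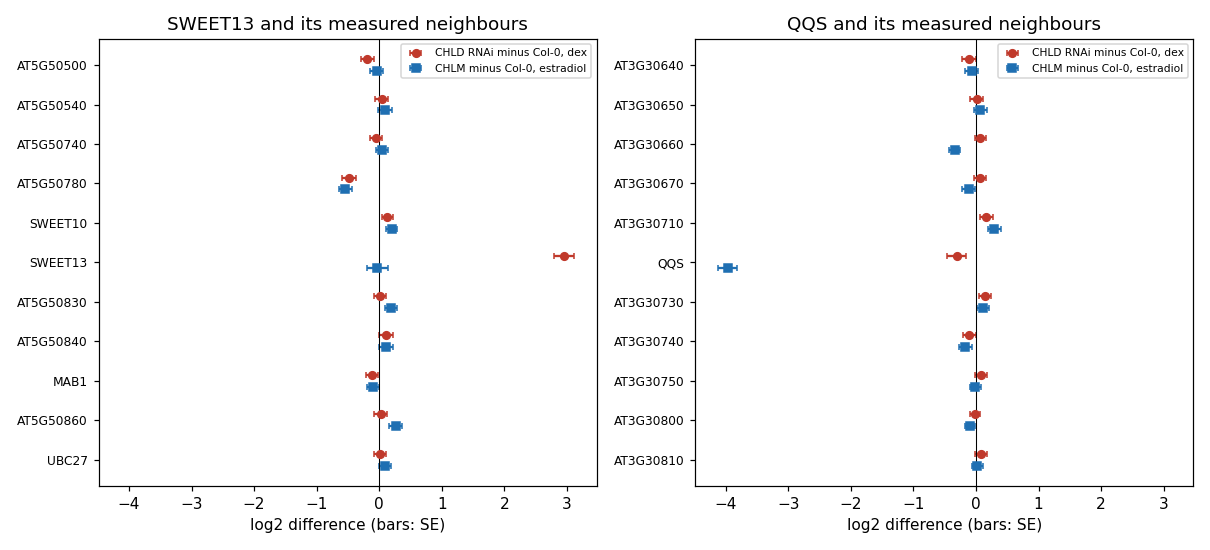
Log2 difference from Col-0 with the same inducer for SWEET13 (left), QQS (right) and the 5 measured genes on each side of each, in chromosome order (rows), in the CHLD RNAi line (circles) and the CHLM overexpression line (squares); bars are SE. The neighbours lie between -0.54 and 0.29, beside 2.95 for SWEET13 in the RNAi line and -3.97 for QQS in the CHLM line.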

How the data were processed

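Per the labels, total RNA of green tissue (100 ng per array) was labelled with biotin and hybridised to one-colour Affymetrix arrays. The authors deposited log2 signal values, and the submitters' processing notes name Affymetrix Expression Console as the software. Version, summary method and normalization are not given in the sources used here, and the log base was taken from the range of the values (2.39 to 14.49). All 12 columns were used as deposited. After 63 control probe sets were left out of 22809, 22746 were tested. Gene names came from the platform annotation and RefSeq (13436 probe sets with 1 gene); of several probe sets of a gene, that with the highest mean over 12 arrays stood for it.

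One model of 4 groups was fitted in R 4.3.3 with limma 3.58.1 (lmFit and eBayes, 8 residual and 6.05 prior degrees of freedom), two-sided, with Benjamini-Hochberg adjustment over all 22746 probe sets and a threshold of 0.05. The fit was run on simulated data with independent noise and added changes of known size. Those data held no outlying array, so they do not show how the fit handles one. Up to 4 members past the threshold were named per gene list, or the one with the smallest p. The members and gene lists were chosen with earlier results of these data known. The number of arrays limits the precision. Alternatives were each array left out, replicate number as a block, quantile normalization, a variance trend with robust fitting, only the arrays compared, and only the brighter probe sets.

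Replicate numbers are shared between groups, but same-numbered arrays of a line and its control did not deviate together (correlations of deviations from group means between -0.11 and 0.07), so the numbers were not used as pairs.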

Additional observations from a re-analysis of the deposited data

How the results depend on the processing

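The SWEET13 and QQS differences in each line, and the differences between the lines, moved by less than the pooled SD of the replicates within the groups compared in every alternative run, though not always by less than the SD of each single group. With each of the 12 arrays left out in turn, SWEET13 ran from 2.83 to 3.16 in the CHLD RNAi line and from -0.12 to 0.08 in the CHLM line, and QQS from -0.49 to -0.15 and from -4.07 to -3.92. In the Col-0 comparison SWEET13 ran from -0.62 to -0.29 (adjusted p from 0.175 to 0.829) and QQS from 0.07 to 0.26, and neither passed in any alternative. The count of the 34 other sugar and starch genes past the threshold was 7 in the RNAi line and 5 to 9 with an array left out. In the CHLM line it was 5, and 2 to 5 with an array left out. It was 2 with only the 6 arrays compared in the fit, where 855 of all probe sets passed in place of 2217. The difference between the lines gave 0, and 0 to 2 with an array left out. With replicate number as a block the counts were 7, 6 and 0, and AT3G30660 (adjusted p = 0.0516) and FMA (0.0512) lost their calls. With only the arrays compared, SWEET11, SWEET17, SBE2.2 and AT3G30660 lost their calls in the CHLM line (adjusted p between 0.0682 and 0.0859). The cause was not tested. Ranking by Spearman's rho shared 1 of the 5 genes most like SWEET13 and 0 of the 5 most like QQS. Dim probe sets, such as SWEET14 and the neighbours of QQS, limit what a difference could show.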
